A study of Mus musculus with 6 samples.

Results

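The Goosecoid locus was described from ATAC-seq peak lists, in which the Tn5 transposase marks open chromatin. The peaks come from a list named FM and a list named KO. The locus comprises the peaks whose nearest protein-coding gene within 100 kb is Gsc (gene ID 14836), which lies on the minus strand of chr12:104471209-104473236 (build mm10). Of the 14665 FM peaks on chromosome 12 and 205844 on all assembled chromosomes, 50 met this rule. Of the 11830 and 139164 KO peaks, 34 did so. Merged across lists they made 50 regions of 18035 on chromosome 12. Among the called peaks the members were chosen by position and not by fold or q, with earlier results of these data known.

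The cells were mouse epiblast stem cells, kept on irradiated embryonic fibroblasts with bFGF and Activin A and then differentiated in serum as embryoid bodies. The protocol note given with all 6 libraries names embryoid bodies of 2 days, in a sentence on the inducible lines. The first group carried a knockout of Mixl1 and the second could be induced to express Mixl1 and received doxycycline at 1 µg/mL for the final 24 h. Each group had 3 libraries, made from 50000 cells with 11 PCR cycles. Doxycycline is recorded for inducible lines alone, so effects of Mixl1, of the drug and of the cell lines cannot be told apart. The sources used here do not give the altered part of Mixl1, the inducible construct, the number of clones or the mouse strain. Each group has 1 deposited peak list, which carries no replicate error and allows no test between groups. FM is explained by no label and was taken as the list of the induced cells by elimination.

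Goosecoid is a paired-type homeobox protein that mostly represses transcription. In the embryo its gene is switched on in the anterior primitive streak and the organizer, where Nodal or Activin signals acting through Smad proteins and FoxH1, together with Wnt signals, drive its promoter. Mix-family factors such as Mixl1 are homeobox proteins of the same streak cells, and in frog embryos they bind the activin-responsive element of the Goosecoid promoter. In the mouse, Goosecoid in turn acts as a repressor of Mixl1.

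The Gsc start lies 0.294 kb from the start of Gm10000, a long non-coding RNA gene of unknown role on the opposite strand (chr12:104473530-104531334). The RefSeq sequences of build GRCm38.p6, from 250 bases before each start to 50 bases from it, are shown since the peak with the highest q score and pileup of the locus, in both lists, covers most of the stretch between these starts. They read the same DNA from opposite strands over most of their length. Capitals mark TAAT or its complement ATTA, the homeobox core, and the 11 bases from the main FM summit to the main KO summit.

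Gsc promoter, chr12:104473187-104473486, minus strand: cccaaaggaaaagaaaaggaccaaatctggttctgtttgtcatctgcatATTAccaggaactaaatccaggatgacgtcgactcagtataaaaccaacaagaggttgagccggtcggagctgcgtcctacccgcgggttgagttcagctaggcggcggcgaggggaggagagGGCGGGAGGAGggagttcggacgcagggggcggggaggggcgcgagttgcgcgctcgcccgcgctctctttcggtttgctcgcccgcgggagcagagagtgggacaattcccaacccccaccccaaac
Gm10000 promoter, chr12:104473280-104473579, plus strand: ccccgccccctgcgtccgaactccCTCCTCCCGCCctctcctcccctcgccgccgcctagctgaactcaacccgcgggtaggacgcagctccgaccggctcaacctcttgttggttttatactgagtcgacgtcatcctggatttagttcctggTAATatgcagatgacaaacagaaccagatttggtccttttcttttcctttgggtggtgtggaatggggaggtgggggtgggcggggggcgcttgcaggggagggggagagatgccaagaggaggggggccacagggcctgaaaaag

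The Gsc window held 1 homeobox core, from 201 to 198 bases before the start (chr12:104473434-104473437), and 58.0% of 32817 promoter windows of this length held at least 1. It held none of the other motifs searched on both strands. The paired-type palindrome, in which TAAT and ATTA lie 3 bases apart and which holds the core itself, was in 0.485% of all windows. TAATCC, the form read by Goosecoid and Otx2, was in 7.06%, and TGTNNATT of the FoxH1 type in 12.2%. AGGTGT, the core read by T-box factors, was in 13.7%, CTTTGA of TCF/LEF factors in 16.0%, the Smad core GTCT in 88.0% and TGTTTAC of forkhead factors in 3.65%. The absence of these letters from the window says nothing on the rest of the locus. GC content was 60.3%, against a median of 52.7% over all windows.

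At the gene itself both lists held the same 3 regions within 2 kb, and none was specific to a list. Of these, the peak over the start was the most enriched. The FM peak spanned chr12:104472706-104473597, with a fold enrichment over the local background of 2.75 and a −log10 q of 33.5. The KO peak spanned chr12:104472698-104473485, with a fold of 2.44 and a −log10 q of 29.2. Fold and q are the peak caller's own values, deposited by the authors. The fold exceeded that of 90.7% of FM and 82.6% of KO peaks on chromosome 12. The FM peak ran 67 bp past the Gm10000 start, and the KO peak ended 45 bp short of it.

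This start peak had 2 summits in each list. The upstream one lay 78 bp before the Gsc start in FM and 68 bp before it in KO, within the capitals of the sequence above. The other lay 258 bp and 208 bp inside the gene. Fold and p together return the peak caller's pileup at a summit and the pileup expected from the local background. Their units are called fragments here. Whether the peak caller piled up whole fragments or read ends extended to a fixed length is not recorded. In FM the upstream summit held 209 fragments (exact Poisson interval 182 to 239) and the inner one 162 (138 to 189). In KO they held 227 (198 to 259) and 225 (197 to 256). At the inner summit the KO fold was the higher one, 2.42 against 2.13 in FM. The FM peak thus had its maximum before the start, although the intervals of its summits overlapped, whereas the KO summits were level. Intervals here cover counting error alone, and PCR copies are not independent molecules. If read ends were counted, both ends of a short fragment can add to the same summit, and the intervals are then too narrow.

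The second region lay inside the gene, at chr12:104471795-104472350 in FM (fold 2.06, 168 fragments) and chr12:104471654-104472239 in KO (fold 1.86, 185 fragments). Its summits lay 1258 bp and 1211 bp past the start, within the 2028 bp gene. The third lay just upstream, at chr12:104474409-104474979 in FM with a fold of 1.76. Its KO counterpart spanned chr12:104474348-104474898 with a fold of 1.57. At the main summits of these 3 regions the FM fold was the higher value while KO held more fragments.

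**Figure D1:**
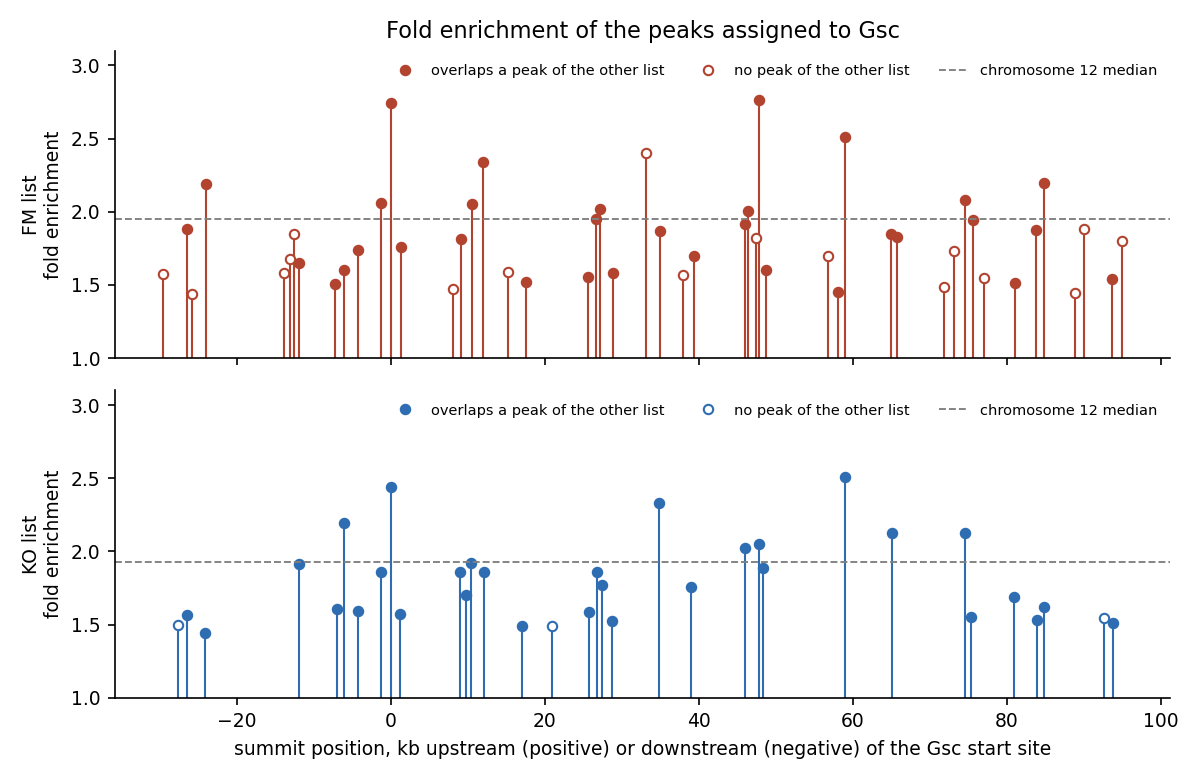
Fold enrichment of the 50 FM (top) and 34 KO (bottom) peaks assigned to Gsc, against the distance of the summit from the start site in kb, with positive values upstream. Filled points overlap a peak of the other list, open points do not, and the dashed line is the chromosome 12 median of that list. Most peaks lie under the line, and those over the start and with summits 59.0 kb upstream are among the points above it in both lists.

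Peaks were denser here than over the chromosome. The stretch of positions within 100 kb that are nearest to Gsc (chr12:104442772-104573236, 130 kb) held 3.83 FM peaks per 10 kb, against 1.25 over chromosome 12. For KO these values were 2.61 and 1.01. Set among 896 windows of that length on chromosome 12, it ranked 4 by number of FM peaks and 51 by number of KO peaks. Peaks covered 15.6% of it in FM and 11.4% in KO, ranking 43 and 77. Of the 50 regions, 36 lay upstream, 2 overlapped the gene and 12 lay downstream, the side on which Serpina3n, a serine protease inhibitor gene, lies 56.9 kb away. On the upstream side the nearest protein-coding gene is Dicer1, which encodes the RNase of microRNA processing, 215 kb away. Gm10000 spans 23 of the regions, and peaks carry no strand that would link them to either gene. Distances of peaks are given below from the gene to the nearest edge of the peak, unless a summit is named.

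Of the 50 regions, 30 were shared, 17 were found in FM alone and 3 in KO alone. FM-specific regions made up 34.0% (exact binomial interval 21.2 to 48.8), where the chromosome 12 background was 36.0% and that of all chromosomes 43.6%. KO-specific regions made up 6% (1.25 to 16.5), where the background was 20.7% on chromosome 12 and 16.0% on all chromosomes. The FM-specific share of Gsc regions was therefore near the background of its chromosome, and KO-specific regions were the rarer class. As deposited, the interval of the KO-specific share takes in the value of all chromosomes but not that of chromosome 12. The intervals treat neighbouring regions as independent, which they are not, so this is no test. Shared regions were 60.0% (45.2 to 73.6), against 43.4% on chromosome 12. An overlap by 1 bp is likelier where peaks are dense, as they are here, and the shares of all classes are not adjusted for that. Of the 20 specific regions 85% (62.1 to 96.8) were FM-specific, and the chromosome 12 value of 63.5% lies inside that interval.

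Which list had more specific regions depended on the number of peaks compared. With the FM list cut to as many peaks as the KO list, by p, 6 regions were FM-specific and 13 KO-specific, and the FM-specific share of 31.6% lay under that of chromosome 12, 42.2%. A KO-specific region of that setting may overlap an FM peak that was cut. KO-specific regions then made up 33.3% at Gsc (19.1 to 50.2) and 33.3% on chromosome 12. With 50000 peaks from each list the counts were 5 and 4, and KO-specific regions made up 26.7% at Gsc and 30.2% on chromosome 12. With −log10 q of 5 or more required of every peak, these shares were 17.2% (5.85 to 35.8) and 20.6%. When summits had to lie within 200 bp they were 15.3% (7.22 to 27.0) and 26.1%, and counting all regions within 100 kb of Gsc 15.1% (7.77 to 25.4) and 20.7%. The interval took in the chromosome 12 value under each of these 5 settings. It also did so with 50% of the shorter peak overlapping, with genes of any type and among peaks above the chromosome 12 median pileup. It did not within 50 kb, with 5.88% (0.720 to 19.7) against 20.7%, nor within 20 kb, with 0 of 16 (up to 20.6%) against 20.7%. Nor did it with −log10 q of 5 or more required of the classed peak alone, with 0 of 29 (up to 11.9%) against 13.3%. Neighbouring regions of 1 locus are not independent, so these intervals describe counting alone and are no test.

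**Figure D2:**
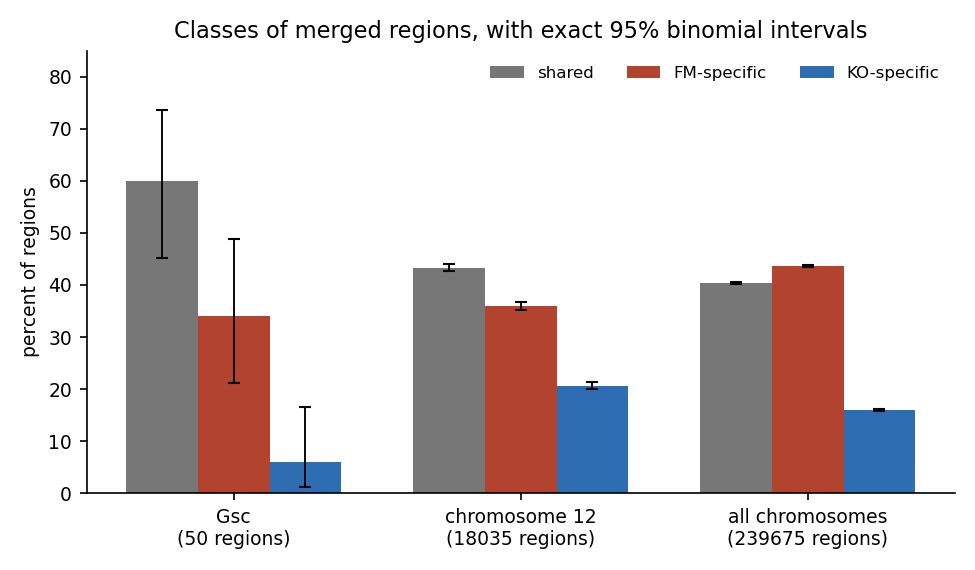
Percent of merged regions that were shared, FM-specific or KO-specific (y axis) at Gsc, on chromosome 12 and on all assembled chromosomes (x axis), with exact 95% binomial intervals as bars. At Gsc the KO-specific share of 6% is below both backgrounds, with an interval that reaches up to 16.5%, and the FM-specific share of 34.0% overlaps that of chromosome 12.

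By peak rather than region, 17 of 50 FM peaks (34.0%) had no KO peak, where 44.2% of FM peaks on chromosome 12 had none. Of the KO peaks 3 of 34 had no FM peak, where the background was 31.5%. On the rest of chromosome 12 the shared fraction rose with each class of −log10 q, from 31.7% under 3 to 86.3% at 10 or more among FM peaks. At Gsc it did not rise throughout, with 7 of 13 FM peaks shared under 3 and 4 of 11 between 3 and 5. Sharing was therefore also set beside the rest of chromosome 12 weighted to the −log10 q classes of the Gsc peaks. The shared fraction was then 66.0% (51.2 to 78.8) at Gsc and 52.4% elsewhere for FM peaks. For KO peaks it was 91.2% (76.3 to 98.1) and 67.8%. This weighting does not account for density, and an overlap by 1 bp is likelier where peaks cover more of the sequence. FM peaks covered 15.6% of the stretch nearest to Gsc and 5.56% of chromosome 12, and KO peaks 11.4% and 4.53%. All 20 KO peaks of −log10 q of at least 5 overlapped an FM peak, 13 of them between 5 and 10 and 7 at 10 or more. On the rest of chromosome 12, 69.1% and 89.2% of the KO peaks of these classes did so.

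The specific peaks were mostly low in fold but not in fragments. The 17 FM-specific ones had a median fold of 1.59 (lowest 1.44, highest 2.40), against a median of 1.84 for FM-specific peaks elsewhere on chromosome 12. Their median pileup was 88 fragments, against 73 elsewhere, and 12 of the 17 exceeded the chromosome 12 median pileup of FM peaks. In fold, 1 of the 17 exceeded the chromosome 12 median of all FM peaks, 1.95. It was chr12:104506263-104506841, 33.0 kb upstream of Gsc inside Gm10000, with a fold of 2.40, −log10 q of 16.6 and 134 fragments (112 to 159). It was the fourth in fold among all FM peaks of the locus, and no KO peak overlapped it. The next by q were chr12:104546366-104546917, 73.1 kb upstream (fold 1.73, −log10 q 7.0), and chr12:104563034-104563473, 89.8 kb upstream (fold 1.89, −log10 q 6.91). On the downstream side 3 FM-specific peaks lay together between 10.3 and 11.8 kb from the gene, with folds of 1.58, 1.68 and 1.84.

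The 3 KO-specific peaks had a median fold of 1.5 and a median pileup of 99 fragments, against 1.84 and 70 for KO-specific peaks elsewhere on chromosome 12. They lay 25.3 kb downstream at chr12:104445564-104445892 (fold 1.5), 20.8 kb upstream at chr12:104494081-104494514 (fold 1.49) and 92.5 kb upstream at chr12:104565770-104565990 (fold 1.55). Their −log10 q values ran from 2.00 to 3.01. None reached the median fold of KO peaks on chromosome 12, 1.92.

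Other shared regions of high fold lay far upstream, although none passed the start peak in q or pileup. A region that spans the end of Gm10000 (chr12:104531280-104532401, 58.0 kb upstream) had a fold of 2.51 in both lists, with 141 FM and 147 KO fragments. Its main summits were 4 bp apart. This was the peak of highest fold at the locus in the KO list. The highest in the FM list was chr12:104520883-104521327, 47.6 kb from the gene, with a fold of 2.76 and −log10 q of 19.3. The KO peak there had a fold of 2.05 and −log10 q of 9.01, and the pileups of 119 (98.6 to 142) and 106 (86.8 to 128) fragments had overlapping intervals.

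Other strong regions differed in their place among the peaks of a list. The FM peak at chr12:104484985-104485473, 11.7 kb upstream, had a fold of 2.34, and its KO counterpart 1.86. The KO peak at chr12:104507951-104508375, 34.7 kb upstream, had a fold of 2.33 and its FM counterpart 1.87. This KO peak is the next one upstream of the strong FM-specific peak. At 64.6 kb a KO peak with 4 summits (chr12:104537856-104539044, fold 2.13) overlapped 2 separate FM peaks with folds of 1.85 and 1.83.

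On the downstream side the KO peak at chr12:104467012-104467379, 3.83 kb past the end of Gsc, had a fold of 2.20 and −log10 q of 17.5. The FM peak there had a fold of 1.60 and −log10 q of 3.86. Its summit held 171 fragments in KO (146 to 199) and 103 in FM (84.1 to 125). Of 34 overlapping pairs of peaks at the locus, the pileup intervals were apart in 2, with KO higher in both. No such count is given for the rest of chromosome 12, so it cannot be called many or few. Fragments were not scaled between lists, and over all 34 pairs KO pileup was the higher one in 25 and FM pileup in 9. The intervals cover counting error alone and are no test between lists. The second pair set a minor FM peak with its summit at 58.1 kb against the wide KO peak with its summit at 59.0 kb, which also overlaps the strong FM peak there. Near the downstream edge the order was the other way: the FM peak at chr12:104449011-104449466 had a fold of 2.19 and 131 fragments (110 to 155), and the KO peak 1.45 and 96 (77.8 to 117), with overlapping intervals.

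The locus combined low fold with high pileup. The median fold of its peaks was 1.78 in FM and 1.73 in KO, under the chromosome 12 medians of 1.95 and 1.92. In all, 13 of 50 FM and 8 of 34 KO peaks exceeded those medians. By fragments at the summit the order turned, with medians of 101.5 and 114 against 83 and 84 on chromosome 12. Here 39 of 50 FM and 33 of 34 KO peaks exceeded the chromosome's median. Fold is the pileup over the local background, whose median was 55.7 fragments in FM and 65.2 in KO, against 40.5 and 41.3 on chromosome 12. All 50 FM and 34 KO peaks had a local background above the chromosome 12 median. None of the 6 libraries is a control, so this background is no separate measure of noise and can include signal of neighbouring peaks. Peaks were denser here, with 3.83 against 1.25 per 10 kb in FM, and their part in the background was not tested. The genome-wide background of the lists was 28.6 and 28.8 fragments.

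**Figure D3:**
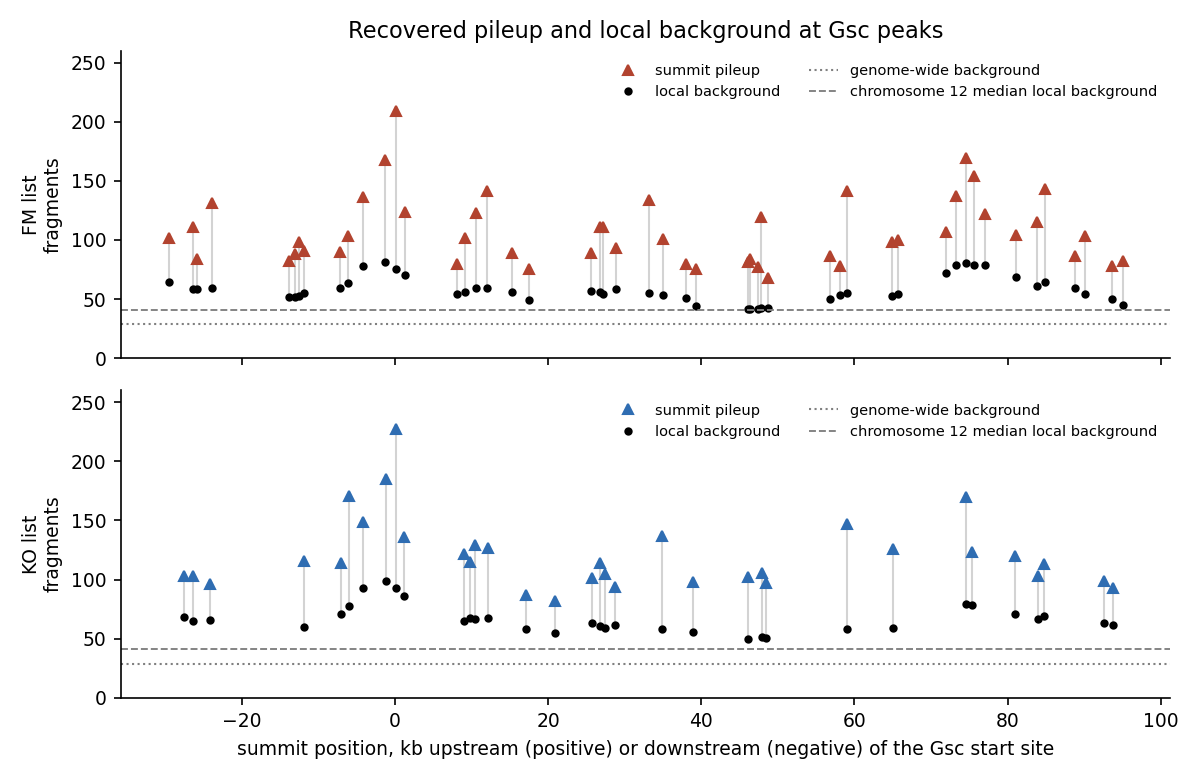
Recovered fragments at the summit (triangles) and in the local background (black points) of each Gsc peak, in the FM (top) and KO (bottom) list, against distance of the summit from the start site in kb, positive upstream. The dotted line is the list's genome-wide background and the dashed line the chromosome 12 median of the local background. Every black point lies above the dashed line, with high stretches at the gene and near 75 kb upstream.

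By the position of the summit, background was highest around the gene and in a second stretch 70 to 80 kb upstream. In the 10 kb from the start through the gene and beyond its end, the median was 70.8 fragments in FM and 85.2 in KO. Between 40 and 50 kb upstream it was lowest, with 41.8 and 50.9. Between 70 and 80 kb it was 78.6 and 79.2. That distal stretch held chr12:104547537-104547981, shared with folds of 2.08 and 2.12 and with 169 and 170 fragments, and 3 of the 17 FM-specific regions.

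Local background at the locus was the higher one in KO, the list with fewer peaks. Over the 34 overlapping pairs the KO background was the higher one in 33, with a median ratio of KO to FM of 1.12 (lowest 0.984, highest 1.26). Elsewhere on chromosome 12 KO was higher in 63.5% of 8426 pairs, with a median ratio of 1.01, and on the other chromosomes in 42.4%, with 0.964. Nearby peaks share much of their background, so these pairs are not independent. Summit pileup was higher in KO in 25 of the 34 pairs, and fold in 15. These fragment numbers were not scaled between lists, and their difference was not tested.

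**Figure D4:**
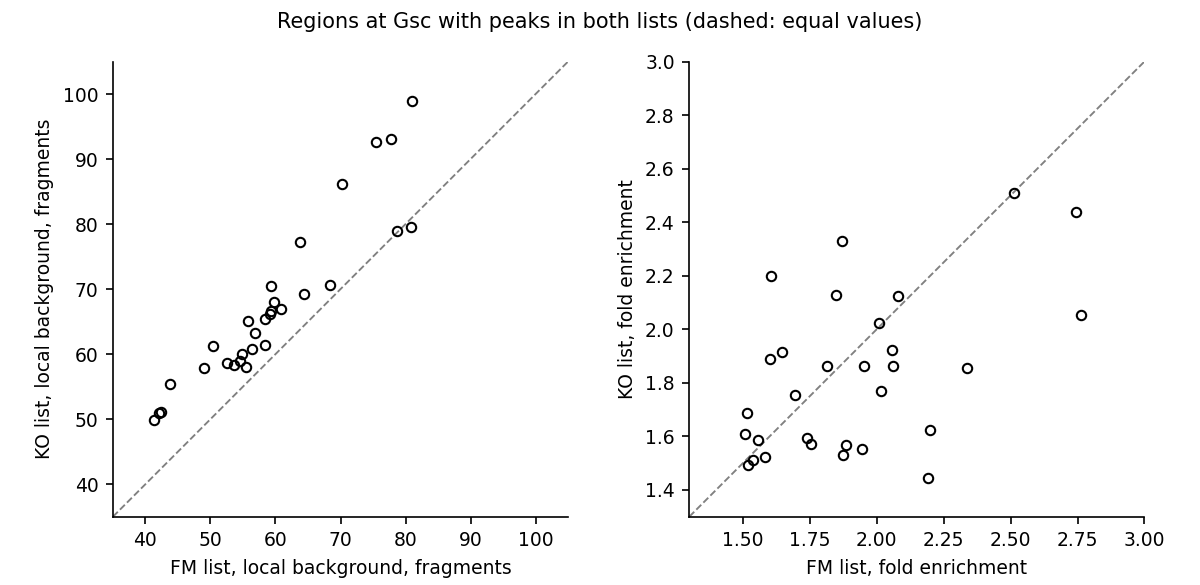
Local background in fragments (left) and fold enrichment (right) of the 30 regions at Gsc with peaks in both lists, FM on the x axis and KO on the y axis, with the strongest peak of each list per region. Dashed lines mark equal values. Backgrounds lie above the line but for 1 region, whereas folds lie on both sides of it.

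Paired summits lay farther apart at Gsc by the median, and nearly as often within 200 bp. The median gap was 112.5 bp over the 34 pairs at Gsc and 52 bp elsewhere on chromosome 12. Within 50 bp lay 10 of 34 pairs (29.4%), against 49.2% elsewhere, and within 200 bp 25 of 34 (73.5%), against 78.8%. At the start of the gene, the gap was 10 bp.

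The edges of the locus followed from the rule. Upstream, the last peaks inside were at 95 kb in FM (fold 1.80) and 93.6 kb in KO (fold 1.51), and the first outside at 100.7 kb in FM (fold 1.71) and 102.2 kb in KO (fold 1.99). Downstream, where positions beyond the midpoint belong to Serpina3n, the last inside were at 27.3 kb (fold 1.57) and 25.3 kb (fold 1.5). The first outside were at 30.5 kb (fold 2.02) and 30.3 kb (fold 1.96). All 73 regions within 100 kb of Gsc, whatever their nearest gene, comprised 42 shared, 20 FM-specific and 11 KO-specific ones.

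The flanking genes had other mixes of classes. Serpina3n had 9 shared, 3 FM-specific and 3 KO-specific regions, and Dicer1 had 26, 24 and 11. By number of regions Gsc ranked 74 among 655 protein-coding genes of chromosome 12 with any region, whose median was 15. Among 299 genes of the chromosome with at least 10 specific regions, 22 had a higher FM-specific share of their specific regions, and the median was 68.2%. The genes of chromosome 12 most like Gsc in their shares of the 3 classes, by Euclidean distance over these shares, were Cdhr3 (17 shared, 10 FM-specific, 2 KO-specific), Rrm2 (16, 9 and 2), Ccdc175 and Syndig1l (10, 6 and 1 each) and Mideas (13, 8 and 1). Cdhr3 is a cadherin-related gene and Rrm2 encodes a subunit of ribonucleotide reductase.

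Most other genes of the Gsc network, like Gsc, had more FM-specific than KO-specific regions. FM-specific regions were also the larger class over all chromosomes, with 43.6% against 16.0% of regions, so this is no trait particular to the network. Of 14 genes of the anterior streak, node and organizer, 10 had more FM-specific regions, 2 more KO-specific and 2 equal numbers. Eomes, which encodes a T-box factor, had 10 FM-specific and 3 KO-specific regions. T, the Brachyury gene, had 4 and 4, and Lhx1, a LIM homeobox gene of the organizer, had 14 and 4. Mixl1 itself had 4 shared, 0 FM-specific and 2 KO-specific regions, which do not check the knockout, as peaks show accessibility and not the allele. Cer1, which encodes a secreted antagonist of Nodal and Wnt and was named after its values were seen, had 0 and 1. Of 16 genes of the Nodal and Wnt inputs, 14 had more FM-specific regions and 0 more KO-specific. The ligand gene Nodal had 4 and 1, the co-receptor gene Tdgf1 had 3 and 1, and Foxh1, which encodes the Smad partner, had 0 and 0 beside 2 shared regions. Of 6 homeobox relatives 5 had more FM-specific regions. Among them Gsc2 had 1 and 0, Otx1 had 1 and 0, and Crx had 2 and 0. Over all 36 genes the FM-specific share was 76.7% of specific regions, near the 73.2% of all chromosomes. More FM-specific than KO-specific regions were found at 80.6% of these genes and at 57.0% of all 21887 protein-coding genes. Of all genes 3249 had no region, whereas each of the 36 had at least 1, so these percentages are not like for like.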

How the data were processed

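Per the submitters' processing notes, bcl2fastq, Bowtie2, SAMtools and MACS2 were used with build mm10. No version, read filter, Tn5 shift or way of combining the libraries is recorded in those sources. The authors deposited 1 list per group in narrowPeak layout. Each peak has a fold (a ratio), a p-value and a q-value as −log10, the summit offset (another number, in bases) and a score of about 10 times −log10 q. The lowest deposited −log10 q was 1.30. Rows of 1 interval were collapsed to the lowest p. Peaks overlapping by 1 bp were joined into regions, and each region went to the nearest of 21887 protein-coding genes of the RefSeq table of GRCm38.p6, the assembly mm10 names. That table holds no exons, so none are given.

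Pileup and background were solved from fold and p under the peak caller's Poisson model. The pileups were whole within 0.02 for 99.99% of FM and 99.97% of KO peaks. Depth in reads is unknown, and so is whether the pileup counts whole fragments or extended read ends. Both steps were run on data simulated under the same Poisson model, with regions spaced apart, and returned 100% of 5000 pileups and 4000 classes. This checks the code, not the fit of the model to the deposited values or the classing of crowded regions. Intervals are exact at 95%. Named peaks are those within 2 kb of Gsc, the 5 of highest fold per list, the 3 specific ones of highest q per list and the outermost; others named were chosen after their values were seen. Named genes are Gsc, its flanking genes, genes of the network list and the 5 of chromosome 12 nearest in class shares. Members, lists and motifs were chosen with earlier results of these data known. Python 3.11.15, pandas 2.3.3 and scipy 1.17.1 were used.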

Additional observations from a re-analysis of the deposited data

How the results depend on the processing

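No paired analysis was possible because each group has 1 list with no values per library, and for the same reason no replicate could be left out. As deposited, 30 regions were shared, 17 FM-specific and 3 KO-specific. FM-specific regions were 34.0% of all regions, against 36.0% on chromosome 12. Among specific regions alone, the share used below, the FM-specific share was 85%, 21.5 percentage points above that of chromosome 12. Of 11 alternatives, the sign of that difference turned in 1, with the FM list cut to the number of KO peaks (−10.6 points, 6 FM-specific and 13 KO-specific regions, share 31.6%). With 50000 peaks per list 6 were shared and 5 FM-specific (share 55.6%, 6.94 points above). With both lists limited to −log10 q of 5 or more, 14 were shared, 10 FM-specific and 5 KO-specific (0.478 points above). With that limit on the classed peak alone 4 were FM-specific and 0 KO-specific (share 100%, 33.5 points above). KO-specific regions numbered 7 when 50% of the shorter peak had to overlap (12.9 points above), 9 when summits had to lie within 200 bp (12.8) and 11 counting everything within 100 kb (1.01). They numbered 6 among peaks above the chromosome 12 median pileup (3.06), a setting chosen after seeing the data. Within 50 kb 10 regions were FM-specific (19.8). The excess was thus about 1 point or less in 2 settings. Within 20 kb 11 were shared, 5 FM-specific and 0 KO-specific, and counting genes of any type 6, 3 and 0, with a share of 100% and 36.5 points above in both. The causes were not tested. Among shared peaks only, the peak over the start exceeded 84.2% of FM and 77.5% of KO peaks in fold. Shares at 1 locus rest on 20 specific regions, which limits their precision.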

Other observations

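Between Gsc and Dicer1, outside the regions nearest to Gsc, the KO peak of highest fold lay 144 kb upstream of the Gsc start (chr12:104617207-104617843). It had a fold of 3.82, −log10 q of 75 and 287 fragments at the summit (255 to 322). The FM peak there had a fold of 2.34, −log10 q of 16.5 and 141 fragments (119 to 166), and the local backgrounds were 74.4 and 59.8 fragments. It was above every KO peak assigned to Gsc in fold and lay 70.1 kb from Dicer1. The FM peak of highest fold in that stretch, at chr12:104676648-104677896 near Dicer1, had a fold of 2.80 and its KO counterpart 2.86. These peaks were chosen after their values were seen.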
